A study of Mus musculus with 4 samples.

Results

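Neutrophils were a small part of the CD45+ cells of the uninjured mouse spinal cord, with 237 cells among the 9266 barcodes of 2 sham libraries and the 31660 barcodes of all 4 libraries of the series. The standard sham library held 194 of them, and the sham library dissociated with actinomycin D (ActD) held 43. The cells were chosen by measured values. A barcode needed 600 genes or more, no more than 10% of its UMIs from mitochondrial genes, at least 0.2% of its UMIs in S100a8 and S100a9, and a UMI of at least 3 of the 7 genes Csf3r, Cxcr2, Il1r2, Hdc, G0s2, Mmp9 and Retnlg. It could hold no UMI of Csf1r, Cd3e, Cd79a, Elane or Mpo, which mark monocytes and macrophages, T cells, B cells and granulocyte precursors. A unique molecular identifier (UMI) tags each captured RNA molecule, so that its amplified copies count as 1 molecule.

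CD45+ immune cells of C57BL/6 mice of both sexes, about 3 months old, were sorted from dissociated cord, and 1 droplet library was made per condition. The mice had been perfused with cold saline before the tissue was taken. By the study's methods, sham mice had their vertebral lamina opened at T10 without a blow to the cord, while the sample titles name healthy spinal cords. The methods also state that all mice were injected daily with flunixin meglumine, ceftiofur sodium and saline after surgery. Of the sham libraries, 1 was made with the standard dissociation and 1 with ActD, an inhibitor of transcription that was present in every step up to the sort. The injured cords, taken 3 and 14 days after a contusion (3 dpi and 14 dpi), were all dissociated with ActD. The study's methods describe 1 pool of mice, males and females in equal number, assigned by chance to a control and 2 injured groups, and the animals in each library were not given in the sources used here. The library is the only replicate, and no difference between libraries can be set against a spread between animals. For this reason no test between libraries was made, and the 95% intervals below (exact Clopper-Pearson for shares above 0, exact Poisson for sums, exact conditional for ratios) cover counting error only. The software version in the file headers was 3.0.1 for the standard and 3.1.0 for the ActD sham library, so protocol, software version, animals and library cannot be told apart.

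Neutrophils are short-lived granulocytes made in the bone marrow, and they fill their granules in a fixed order as they mature. Azurophil granule proteins such as myeloperoxidase and elastase are made in promyelocytes, specific granule proteins such as lactoferrin (Ltf), cathelicidin (Camp), neutrophilic granule protein (Ngp) and lipocalin 2 (Lcn2) in myelocytes and metamyelocytes, and gelatinase granule proteins such as Mmp9 later. The transcription factor C/EBPε (Cebpe) drives the specific granule genes, and the RNA of a granule protein falls once its stage has passed, so that circulating neutrophils carry the proteins with little of the RNA. Healthy cord tissue holds few neutrophils.

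The promoters of the genes that the results turn on are shown because the specific granule genes and the interferon-response genes each moved together over cells or libraries. The stretches are from RefSeq on GRCm38.p6 and lie within the 250 bases before the start of the gene. Each is written 5′ to 3′ on the strand of the gene. For the granule genes the capitals mark the letters of a C/EBP motif, TTGCNNAA on 1 strand or TTNNGCAA on the other.
Ltf, chr9:111019187-111019254, + strand: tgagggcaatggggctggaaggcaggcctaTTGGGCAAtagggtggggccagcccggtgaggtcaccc
Ngp, chr9:110419640-110419807, + strand: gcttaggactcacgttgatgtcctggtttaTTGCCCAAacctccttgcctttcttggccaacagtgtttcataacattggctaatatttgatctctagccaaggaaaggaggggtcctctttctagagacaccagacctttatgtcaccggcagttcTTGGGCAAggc
Lcn2, chr2:32387918-32387985, - strand: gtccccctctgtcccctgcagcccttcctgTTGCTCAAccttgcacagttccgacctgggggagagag
Mmp8, chr9:7558380-7558428, + strand: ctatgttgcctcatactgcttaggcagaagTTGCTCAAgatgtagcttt
Of the 9 specific granule genes with a promoter in the table, 4 held these letters (44.4%), namely Lcn2, Ltf, Ngp and Ptx3, against 9.55% of all 27025 promoters. The letters were absent from the window of Camp. Mmp8, neutrophil collagenase, held them too.

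For the interferon-response genes the capitals mark an interferon-stimulated response element (ISRE), the site bound by the interferon-activated STAT and IRF factors, searched as GAAANNGAAA and, on the other strand, TTTCNNTTTC.
Isg15, chr4:156200845-156200926, - strand: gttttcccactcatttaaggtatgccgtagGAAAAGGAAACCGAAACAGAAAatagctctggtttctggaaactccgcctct
Ifit1, chr19:34640755-34640843, + strand: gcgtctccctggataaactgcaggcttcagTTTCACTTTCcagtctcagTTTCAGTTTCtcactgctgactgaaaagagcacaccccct
Ifit3, chr19:34583343-34583446, + strand: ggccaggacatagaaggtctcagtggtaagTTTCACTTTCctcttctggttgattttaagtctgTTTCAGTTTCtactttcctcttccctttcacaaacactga
Rsad2, chr12:26456533-26456602, - strand: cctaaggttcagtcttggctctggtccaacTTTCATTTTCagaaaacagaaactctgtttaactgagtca
Of the 16 interferon-response genes with a promoter in the table, 7 held the ISRE letters (43.8%), against 3.04% of all promoters. Isg15 held 3 overlapping matches, Ifit1 and Ifit3 held 2 each, and Rsad2 held 1. A match describes these letters and is neither a bound site nor a cause of any value below.

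The neutrophils made up 3.38% of the 5736 filtered cells of the standard library (interval 2.93 to 3.88%) and 1.95% of the 2203 filtered cells of the ActD library (1.42 to 2.62%). In the standard library they carried a median of 6050.5 UMIs and 1385 genes per cell (1299 to 26254 UMIs). In the ActD library the median was 13650 UMIs and 2249 genes (2041 to 39900 UMIs). The ActD neutrophils were thus fewer but deeper. The 2 sham libraries shared 3 barcodes, none of them of a neutrophil. The standard library as a whole was the larger, with 60412094 UMIs over 6827 barcodes against 27447471 UMIs over 2439 barcodes for ActD.

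The values used by the rule are given as a description. S100a8 and S100a9, the subunits of calprotectin, together took a median of 31.1% of the UMIs of a cell in the standard library (2.69 to 43.4%) and 31.7% in the ActD library (15.5 to 42.7%). The members were far from the threshold of 0.2%, since the lowest stood at 2.69% and the 6 otherwise fitting cells below it, all in the standard library, reached at most 0.0901%. All 7 neutrophil genes were found in 133 of 194 and 18 of 43 cells, and exactly 3 of them in 1 and 2 cells. Retnlg, a resistin-like protein of granulocytes, summed to 38017 CPM (UMIs of the gene scaled to the same total in each library) in the standard and 13630.5 CPM in the ActD neutrophils. The UMIs count the 3′ ends of molecules, and no scaling by gene length was made. G0s2, an inhibitor of lipolysis, stood at 1852 and 119.95 CPM, Il1r2, the interleukin 1 decoy receptor, at 1086 and 222 CPM, and Cxcr2, the chemokine receptor for blood neutrophils, at 341 and 1199.5 CPM. Csf3r, the G-CSF receptor, stood at 353 and 404 CPM.

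The excluded genes shaped the set more than any threshold did. Without them the same rule gave 611 cells in the standard library (10.7% of filtered cells, 9.87 to 11.5%) and 115 in the ActD library (5.22%, 4.33 to 6.23%). Of the 417 cells that they removed in the standard library, 311 held Csf1r, 165 Elane, 134 Mpo, 58 Cd79a and none Cd3e, and 119 were removed for a single UMI of these genes. Of the 72 removed in the ActD library, 64 held Csf1r and 41 were removed for a single UMI. The 210 standard cells removed with Elane or Mpo stood at 11310 CPM of the azurophil granule list and 50669 CPM of the specific granule list, against 435 and 73221 CPM in the members. The 16 such cells of the ActD library stood at 4322 and 82379 CPM. Cells removed with more than 1 UMI of the excluded genes carried 17064 CPM of 13 microglial genes in the standard and 5697 CPM in the ActD library, against 1640 and 1269 CPM in the members. The set described here therefore lacks the precursors with azurophil granule RNA by its rule, and the absence of such cells from it is no finding.

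The label was checked against S100a8, Retnlg, Mmp8 and Ly6g, the first 2 of which the rule used. After each cell was thinned to 1000 UMIs, Mmp8, neutrophil collagenase, was found in 82.0% of the standard and 83.7% of the ActD neutrophils, against 0.378% and 0.384% of microglia-like cells. Ly6g, the surface antigen used to sort mouse neutrophils, was found in 45.4% and 48.8%, against 0.0582% and 0 of 1821 microglia-like cells, which at this thinned depth allows a share of up to 0.165% by a floor of 3 counts. Before thinning, Ly6g was found in 85.6% and 90.7% of neutrophils and in 0.582% and 0.219% of microglia-like cells. Microglia-like cells were filtered cells with a UMI of at least 3 of P2ry12, Tmem119, Gpr34, Siglech, P2ry13 and Sall1, at a median of 8000.5 and 9739 UMIs. Cells that met the neutrophil rule before the excluded genes were applied were left out of them. The low neutrophil markers in microglia-like cells are therefore set in part by this choice. Ly6g summed to 780 CPM in the standard and 785 CPM in the ActD neutrophils, and Mmp8 to 2658 and 2982 CPM (log2 ratio −0.17, or −0.79 with the cells removed by the excluded genes kept in). Both markers that the rule did not use fit the label in both libraries.

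Markers of other cell types were low, which the rule set in part, since it barred any UMI of Csf1r, Cd3e and Cd79a. The cells that the excluded genes removed from the standard library stood at 15317 CPM of the 13 microglial genes. The low microglial, T cell and B cell markers are thus a description and no separate check of the label. The 13 microglial genes together made up 1640 CPM in the standard and 1269 CPM in the ActD neutrophils, most of it Cst3, against 77480 and 95142 CPM in microglia-like cells. At least 3 of the 6 defining microglial genes were found in 1 standard and 2 ActD neutrophils, and 1 ActD neutrophil held 5.24% of its UMIs in the 13 genes. The specific granule, immediate early, inflammatory and interferon ratios without these cells are given in the closing section. Monocyte markers stood at 924 and 1338 CPM, of which Ly6c2, which neutrophil precursors also express, made up 99.0% and 99.9%. B cell markers stood at 127 and 45.6 CPM, erythroid markers at 6 and 0 UMIs, and eosinophil markers at 8 and 0 UMIs. MHC class II genes stood at 78.9 and 37.96 CPM, against 1651 and 2365 CPM in microglia-like cells. Scrublet scores, cut at 0.8% of cells per 1000 cells of a library, marked none of the neutrophils of either sham library as a doublet.

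Both libraries held neutrophils along a wide range of specific granule RNA. The 10 genes of this list took 7.32% of all neutrophil UMIs in the standard library (73221 CPM) and 8.22% in the ActD library (82179 CPM). In single cells the share ran from 0 to 20.2% with a median of 2.28% in the standard library, and from 0.26 to 15.5% with a median of 6.11% in the ActD library. The ranges overlapped almost wholly, while 29 of 43 ActD cells lay above the standard median. Under 2% of UMIs were found in 83 standard cells (42.8%, interval 35.7 to 50.1%) and 11 ActD cells (25.6%, 13.5 to 41.2%). A share of 8% or over was found in 54 standard cells (27.8%, 21.7 to 34.7%) and 15 ActD cells (34.9%, 21.01 to 50.9%). The intervals of the 2 libraries overlapped in both ranges. The ranges are cut from a continuous share, with 33 standard and 7 ActD cells within 0.5 percentage points of the lower bound.

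**Figure D1:**
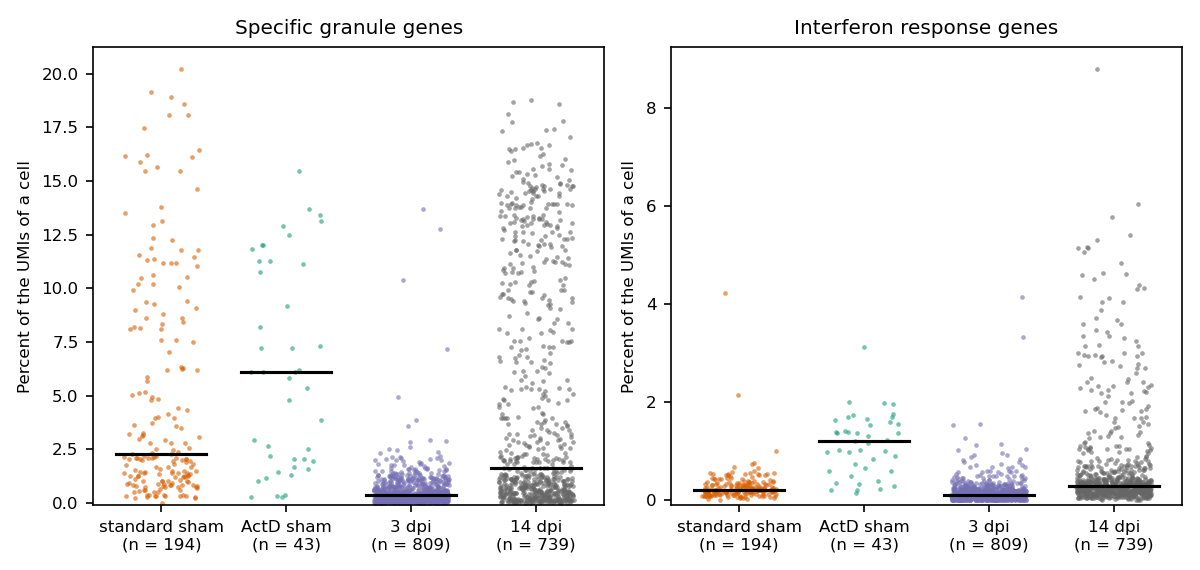
Share of the UMIs of each cell in the specific granule list (left) and the interferon response list (right), in percent, for the 4 libraries chosen by the same rule. Points are cells, black lines are medians. The specific granule share reaches 20.2% in the standard and 15.5% in the ActD sham library, and the interferon shares of the ActD sham cells lie mostly above those of the standard sham cells.

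Of the 9 specific granule genes with at least 50 UMIs over both libraries, none was at least 2-fold higher in the standard library, 2 were at least 2-fold lower, and the median log2 ratio of standard over ActD was −0.23. Over all 3109 genes with that many UMIs, 10.1% were at least 2-fold higher and 11.4% at least 2-fold lower in the standard library, with a median of −0.12. The neutrophil sums were 1355685 UMIs in the standard and 658597 in the ActD library. A gene could thus reach the minimum mostly through the library where it was high, which limits all counts of genes past 2-fold. Scaling by edgeR TMM factors in place of total UMIs adds 0.11 to each log2 ratio of standard over ActD. Camp, the precursor of the antimicrobial peptide cathelicidin, stood at 19130 CPM in the standard and 16746 CPM in the ActD library (log2 ratio 0.19, interval 0.16 to 0.22). Ngp stood at 26733 and 22902 CPM (0.22, 0.20 to 0.25). Both differed by less than 2-fold, and both turned direction with the cells removed by the excluded genes kept in (−0.19 and −0.34).

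Ltf, the iron-binding lactoferrin, stood at 5914 CPM in the standard and 12003 CPM in the ActD library, a log2 ratio of −1.02 (−1.07 to −0.98). The ratio was −0.91 with TMM scaling, −0.97 with bounds of 1000 genes and 5% mitochondrial UMIs, and −1.57 with the removed cells kept in. Cd177, a surface protein stored in specific granules, stood at 840 and 1736 CPM (−1.05, −1.17 to −0.93). Cybb, the catalytic subunit of the NADPH oxidase, stood at 842 and 1593 CPM (−0.92, −1.04 to −0.80). Lcn2, which binds bacterial siderophores, stood at 14208 and 21013 CPM (−0.56, −0.60 to −0.53, or −1.11 with the removed cells kept in). These 4 genes were lower in the standard library, but with TMM scaling neither Ltf nor Cd177 passed 2-fold. Hp, haptoglobin, and Chil3, a chitinase-like protein, stood at 2496 and 2884 CPM in the standard and at 2935 and 3085 CPM in the ActD library. Olfm4 differed by less than its counting error (173 and 167 CPM, log2 ratio 0.05, −0.29 to 0.39), and Ptx3 had no UMI in either library.

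Within each library, the granule genes rose and fell together from cell to cell. The rank correlation over cells of Camp with the other specific granule genes was 0.92 in 194 standard and 0.90 in 43 ActD cells, and those of Ngp, Ltf and Lcn2 lay between 0.82 and 0.93. The ranges are cut on a sum that includes Camp and Ltf, so the values of these genes in them are a description. In cells with a share under 2%, Camp stood at 380 CPM in the standard and 224 CPM in the ActD library, and in cells with 8% or over it stood at 38988 and 27659 CPM. Ltf went from 30.8 and 9.33 CPM to 12163 and 19129 CPM. Cebpe, the factor of the specific granule stage, went from 8.39 and 46.6 CPM to 235 and 240 CPM. Cells of 1 library share its depth and free RNA, and the granule share itself ran with the UMIs of a cell (rank correlation 0.77 and 0.62), with a median of 4068 and 8378 UMIs under 2% and 10221 and 23398 UMIs at 8% or over.

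Mmp8 and Ly6g did not follow the specific granule genes. The rank correlation with the specific granule share was 0.04 and −0.24 for Mmp8, and 0.27 and 0.23 for Ly6g. Mmp8 stood at 2759, 3523 and 1992 CPM in the low, middle and high range of the standard library and at 3115, 5076 and 1735 CPM in the ActD library, highest in the middle range of both. Ly6g stood between 701 and 880 CPM in the 3 ranges of the standard and between 550 and 875 CPM in those of the ActD library. Mmp8, whose protein is stored in specific granules, was placed on the gelatinase granule list here and made up 76.9% and 82.2% of its UMIs, so the sum of that list is largely Mmp8. Of the 5 genes of the list with at least 50 UMIs, 1 was at least 2-fold higher and none at least 2-fold lower in the standard library, beside 10.1% and 11.4% of all genes, namely Adam8, a metalloprotease that cuts surface proteins, at 504 and 247 CPM. Padi4, which citrullinates histones in extracellular traps, stood at 190 and 292 CPM.

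At the other end of the range lay cells with Ccl6, Il1b and Jaml. Ccl6, a chemokine of mature myeloid cells, stood at 2846 CPM in standard cells with under 2% granule RNA, at 704 CPM in the middle range and at 119 CPM at 8% or over. In the ActD library it stood at 877, 79.4 and 8.58 CPM. Its rank correlation with the specific granule share was −0.79 over the standard and −0.64 over the ActD cells, and −0.67 and −0.48 after each cell was thinned to 1000 UMIs. Il1b, interleukin 1β, gave −0.72 and −0.52, and Jaml, an adhesion molecule for migration through epithelium, −0.59 and −0.35. Jaml had a UMI in only 5 of the 43 ActD cells, so its value there rests on few counts. In both libraries, cells with a larger granule share tended to hold a smaller share of these genes.

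**Figure D2:**
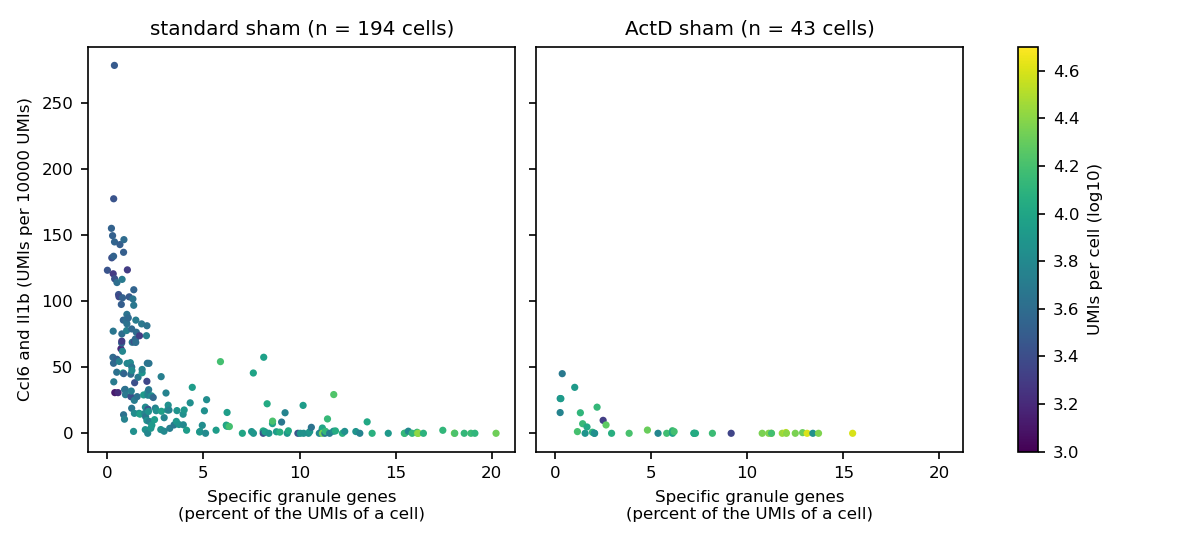
Specific granule share of each cell in percent of its UMIs against its UMIs of Ccl6 and Il1b per 10000, in the standard (left) and ActD (right) sham library. Points are cells, coloured by the log10 of their UMIs. The cells with the most Ccl6 and Il1b UMIs lie at low granule shares in both libraries.

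The 12 proliferation genes summed to 1949 CPM in the standard and 2232 CPM in the ActD neutrophils, against 1490.1 and 1047 CPM in microglia-like cells. The cells removed with Elane or Mpo stood at 5288 and 8445 CPM, above the members. Mki67, a marker of cycling cells, had 92 UMIs in the standard and 13 in the ActD neutrophils (67.9 and 19.7 CPM), against 50.4 and 54.8 CPM in microglia-like cells. After thinning it was found in 2.58% of standard neutrophils and 1.69% of microglia-like cells, and in 0 of 43 ActD neutrophils, which at this thinned depth allows a share of up to 6.98% by a floor of 3 counts. Before thinning it was found in 7.22% of standard and 9.30% of ActD neutrophils. In the standard library, Mki67 stood at 152 CPM in cells with 8% granule RNA or over and at 2.80 CPM in cells under 2%, and Top2a, the topoisomerase of dividing cells, at 100 and 2.80 CPM. Of the 7 proliferation genes with at least 50 UMIs, 6 were at least 2-fold higher in the standard library and none at least 2-fold lower, beside 10.1% and 11.4% of all genes, while Hmgb2, which made up 82.2% and 95.8% of the UMIs of the list, stood at 1602 and 2138 CPM. This count is limited by the minimum, which Cenpf, for example, reached with 49 standard UMIs and 1 ActD UMI. Cd63, a membrane protein of azurophil granules, made up 87.3% of the azurophil list in either library, and Prtn3, proteinase 3, stood at 24.3 and 10.6 CPM, below its level of 138 and 47.2 CPM in microglia-like cells.

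Genes of the killing and migration machinery were expressed in both libraries. The 6 NADPH oxidase genes stood at 5616 CPM in the standard and 7021 CPM in the ActD library, and none passed 2-fold. Cyba, the partner of Cybb in the membrane, stood at 1842 and 1685 CPM, and Ncf1, the p47 subunit, at 572 and 998 CPM. Of 9 adhesion and migration genes with at least 50 UMIs, none was at least 2-fold higher in the standard library and 2 were at least 2-fold lower, beside 10.1% and 11.4% of all genes, with a median log2 ratio of −0.46. Cd47, the signal against uptake by phagocytes, stood at 258 and 618 CPM (−1.26, −1.47 to −1.05). Itgam, the integrin CD11b, stood at 481 and 718 CPM (−0.58, −0.75 to −0.40). Of 9 secretory vesicle and surface receptor genes with that many UMIs, 3 were at least 2-fold higher and 1 at least 2-fold lower. All genes gave 10.1% and 11.4%. Among the receptors, Fpr2, a formyl peptide receptor, stood at 235 and 777 CPM (−1.73, −1.94 to −1.52), while Clec4e, a receptor for mycobacterial lipids, stood at 617 and 279 CPM (1.14, 0.91 to 1.38).

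The study used ActD to limit transcription during dissociation, and the 2 sham libraries differ in this protocol and in whatever else differed between the libraries. Inflammatory genes were higher in the standard library. Of 14 genes with at least 50 UMIs, 11 were at least 2-fold higher, none at least 2-fold lower, and the median log2 ratio was 2.30, beside 10.1% of all genes higher. The list summed to 5723 CPM in the standard and 1288 CPM in the ActD neutrophils (log2 ratio 2.15, 2.05 to 2.26). Il1b stood at 1346 and 121 CPM, 11.1-fold higher (log2 ratio 3.47, 3.15 to 3.81), with a UMI in 142 of 194 and 9 of 43 cells. Cxcl2, a chemokine that attracts neutrophils, stood at 2278 and 460 CPM, 4.95-fold higher (2.31, 2.14 to 2.48). Nfkbia, the inhibitor induced by NF-κB, stood at 679 and 296 CPM (1.20, 0.97 to 1.43). Cd14, the coreceptor for lipopolysaccharide, was on the surface receptor list and stood at 792 and 63.8 CPM (3.63, 3.19 to 4.12).

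Immediate early genes, which respond to stimuli within minutes, were also higher, by less. Of 18 genes with at least 50 UMIs, 10 were at least 2-fold higher and none at least 2-fold lower in the standard library, beside 10.1% and 11.4% of all genes, with a median log2 ratio of 1.30. The list summed to 5993 and 2962 CPM (1.02, 0.94 to 1.09, or 2.39 with the removed cells kept in). The ratio of sums was under 2-fold without the deepest 5% of cells (0.93) and with cells weighted equally (0.95). The same held with bounds of 1000 genes and 5% mitochondrial UMIs (0.96) and without members with 3 microglial genes (0.97). Jun stood at 336 and 62.3 CPM (2.43, 1.97 to 2.93, or 4.42 with the removed cells kept in), Jund at 822 and 244 CPM (1.75, 1.51 to 1.998), and Nr4a1, an orphan nuclear receptor, at 150.5 and 9.11 CPM (4.05, 2.90 to 5.51). Atf3, a stress-induced factor, had 187 UMIs in the standard and 0 in the ActD neutrophils, at least 30.3-fold higher against a floor of 3 counts in the ActD library. With the removed cells kept in, Atf3 stood at 812 and 2.48 CPM (log2 ratio 8.36).

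Fos, among the immediate early genes with the largest ratios in microglia-like cells, did not follow. In neutrophils it stood at 426 CPM in the standard and 545 CPM in the ActD library (log2 ratio −0.35, −0.55 to −0.16), with a UMI in 166 of 194 and 42 of 43 cells. With cells of at most 1 UMI of the excluded genes kept in the ratio was −0.22, and with all removed cells kept in it was 1.64. In microglia-like cells it stood at 4921 and 21.2 CPM (7.86, 7.72 to 7.998). Within the ActD library, Fos was thus 25.7-fold higher in neutrophils than in microglia-like cells. Dusp1, Zfp36 and Ier2 also had sizeable ActD levels, at 342, 367 and 197 CPM in neutrophils and at 21.9, 108 and 26.3 CPM in microglia-like cells. The summed immediate early list stood at 46484 and 1861 CPM in microglia-like cells (4.64, 4.63 to 4.66) and the inflammatory list at 21832 and 692 CPM (4.98, 4.96 to 5.004), so that both ratios were larger there than in neutrophils. The difference between the cell classes was not tested.

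**Figure D3:**
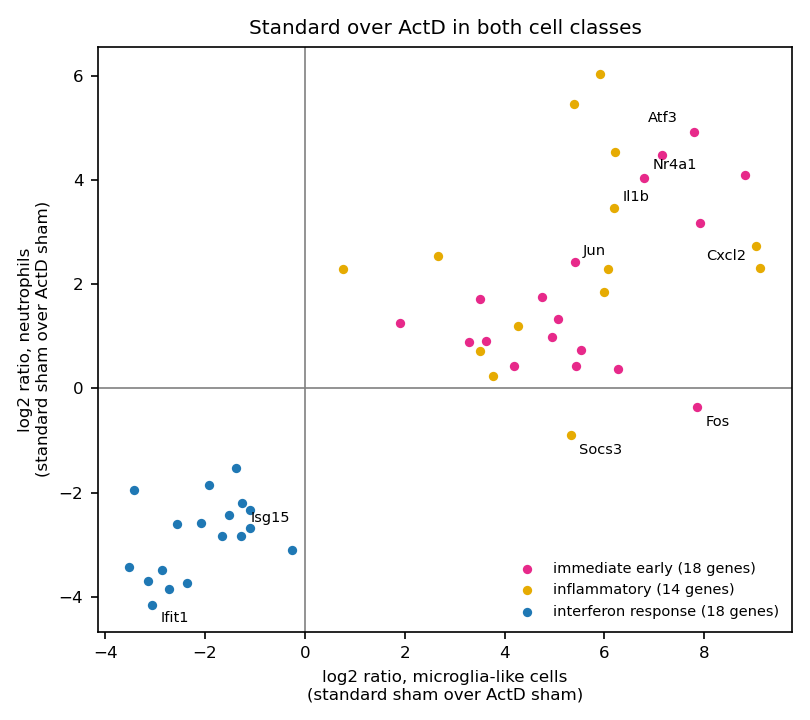
log2 ratio of CPM of standard over ActD sham in microglia-like cells (horizontal) and in neutrophils (vertical). Each point is a gene with at least 50 UMIs in both classes, 18 immediate early, 14 inflammatory and 18 interferon response genes. All interferon genes lie below 0 on both axes, and Fos and Socs3 are the genes to the right of 0 and below it.

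Microglial RNA was found at a low level in the neutrophils, and some of these values lie near it. The 13 microglial genes stood in standard neutrophils at 1.25 to 3.04% of their level in microglia-like cells, with a median of 1.59%, and in ActD neutrophils at 0.521 to 5.30%, with a median of 0.853%. Against this, Atf3 stood in standard neutrophils at 3.45% of its microglial level of 4001 CPM, Ccl4 at 3.54%, Egr1 at 3.98%, Ccl3 at 5.36% and Jun at 5.33%. Il1a, Socs3, Icam1 and Egr3 lay within the range of the microglial genes. The part of microglial RNA in the levels of these genes was not tested. Il1b and Cxcl2 stood at 2.93 and 4.96 times their microglia-like level in the standard library, and Thbs1, thrombospondin 1, at 61.8 times. In that library 6 of 18 inflammatory genes and 0 of 21 immediate early genes stood above their microglia-like level.

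Interferon-response genes went the other way. All 18 genes with at least 50 UMIs were at least 2-fold lower in the standard library, beside 11.4% of all genes, and their median log2 ratio was −2.76. The list summed to 2570 CPM in the standard and 11099 CPM in the ActD neutrophils (−2.11, −2.17 to −2.05). Per cell it took a median of 0.215% of UMIs in the standard and 1.22% in the ActD library. Of 43 ActD cells, 40 lay above the standard median, and 2 of 194 standard cells lay above the ActD median, the highest at 4.22%. The signal was therefore spread over nearly all ActD neutrophils.

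Ifitm3, a membrane protein that blocks virus entry, was the most abundant of the list at 1559 and 4493 CPM (−1.53, −1.61 to −1.45). Isg15, a ubiquitin-like modifier, stood at 177 and 817 CPM (−2.21, −2.43 to −1.98), and Slfn4, a schlafen gene of myeloid cells, at 200 and 1433 CPM (−2.84, −3.04 to −2.65). Ifit1, which binds viral RNA, stood at 21.4 and 383 CPM, 17.9-fold lower in the standard library (−4.16, −4.77 to −3.60), with a UMI in 9 of 194 and 31 of 43 cells. Ifit3, Rsad2 and Irf7, the factor that amplifies interferon induction, stood at 20.7, 76.7 and 53.8 CPM in the standard and at 232, 548 and 323 CPM in the ActD library. With the removed cells kept in, the ratios of Ifitm3, Isg15, Slfn4 and Ifit1 were −2.32, −2.92, −3.71 and −5.42. Isg15, Ifit1, Ifit3 and Rsad2 are the genes whose ISRE letters are printed above. In microglia-like cells the list stood at 725 and 1634 CPM (−1.17, −1.20 to −1.15), lower in the standard library as well. Cxcl10, the interferon-induced chemokine, was 1 of the 2 list genes under 50 UMIs, with 18 and 0 UMIs.

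**Figure D4:**
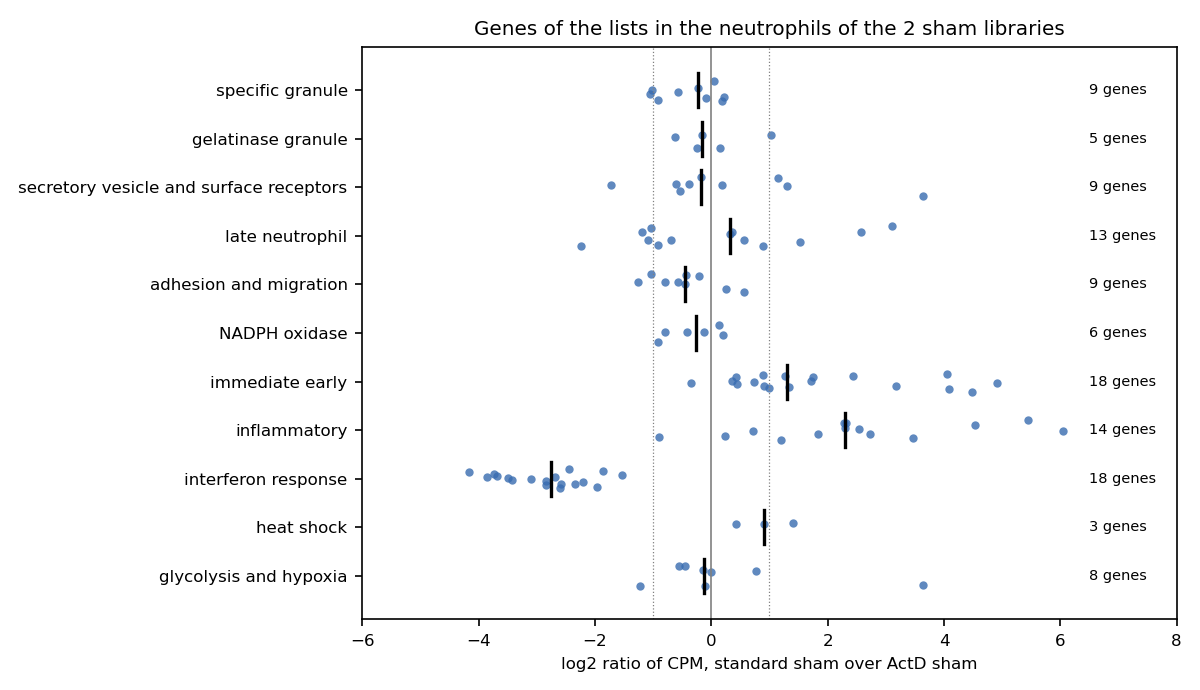
log2 ratio of CPM, standard over ActD sham neutrophils, for the list genes with at least 50 UMIs over both libraries. Points are genes, black bars are list medians and dotted lines mark 2-fold. All 18 interferon response genes lie left of the 2-fold line, and 11 of 14 inflammatory and 10 of 18 immediate early genes lie right of it.

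The 2 libraries differed in their spread along the granule range, so the lists were also compared within its ranges, a comparison chosen after the data had been seen. The inflammatory list gave log2 ratios of 1.98 in cells under 2%, 1.74 at 2 to 8% and 1.82 at 8% or over. The immediate early list gave 0.73, 0.66 and 1.23, and the interferon list −2.28, −1.95 and −2.29. The immediate early ratio was under 2-fold in the 2 ranges below 8%. The level of the inflammatory list itself fell with granule RNA, from 12432 to 5359 and 1892 CPM in the standard and from 3143 to 1608 and 535 CPM in the ActD library. The interferon list stood at 13636, 12856 and 9310 CPM in the ActD ranges and at 2798, 3316 and 1909 CPM in the standard ranges. Fos gave −0.91, −0.62 and 0.10 (−0.26 to 0.47). The ActD ranges hold 11, 17 and 15 cells.

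**Figure D5:**
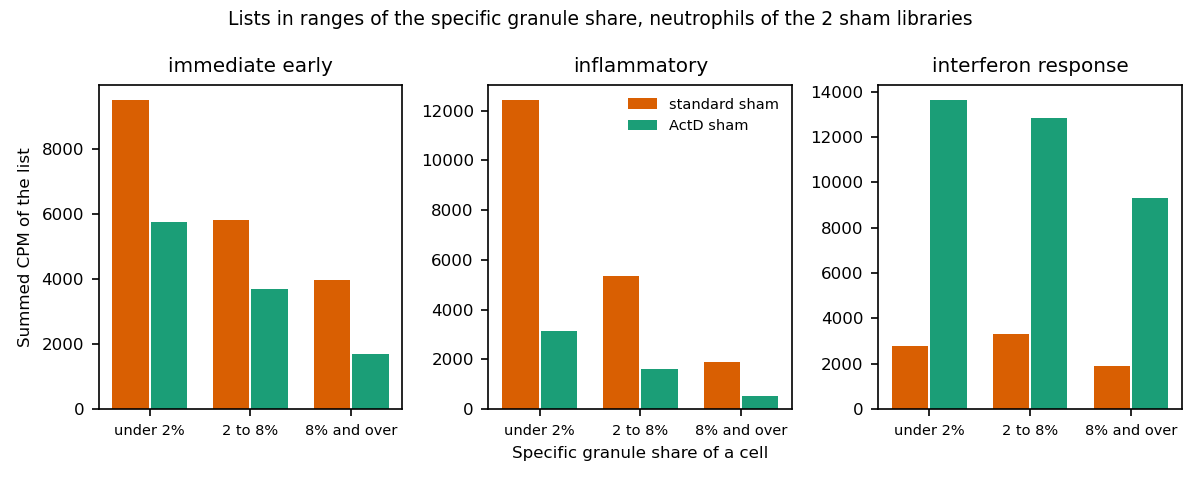
Summed CPM of the immediate early, inflammatory and interferon response lists (vertical, starting at 0) in neutrophils with a specific granule share under 2%, 2 to 8% and 8% or over, for the standard and ActD sham libraries. Bars are sums over 83, 57 and 54 standard and 11, 17 and 15 ActD cells. The inflammatory list is higher and the interferon list lower in the standard library in each range.

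Late neutrophil genes did not move as a group. Of 13 with at least 50 UMIs, 3 were at least 2-fold higher and 4 at least 2-fold lower in the standard library, beside 10.1% and 11.4% of all genes. The list summed to 9743 and 9456 CPM (0.04, with an interval that included 0). In cells with a granule share under 2%, 2 to 8% and 8% or over, its log2 ratios were −0.10, −0.21 and −0.14. Each of these intervals lay below 0. Ccl6 stood at 1016 and 172 CPM (2.57, 2.29 to 2.86, or 1.20 with the removed cells kept in), Jaml at 118 and 13.7 CPM (3.11, 2.15 to 4.27), and Btg1, an antiproliferative gene, at 1427 and 494 CPM (1.53, 1.36 to 1.71). Ifitm1 went the other way at 300.2 and 1423 CPM (−2.24, −2.42 to −2.08), as did Stfa2l1, a stefin, at 179 and 381 CPM, and Gda, guanine deaminase, at 496 and 1127 CPM. Stfa2l1 turned direction along the granule range, with log2 ratios of −2.09 under 2%, −1.30 at 2 to 8% and 0.76 (0.007 to 1.58) at 8% or over. Among survival genes, Mcl1, on which neutrophil survival depends, stood at 903 and 828 CPM (0.13, −0.02 to 0.27), and Bcl2l11, the proapoptotic Bim, at 92.2 and 6.07 CPM (3.92, 2.53 to 5.82). Of the 8 glycolysis and hypoxia genes with at least 50 UMIs, 1 was at least 2-fold higher, Hilpda, which coats lipid droplets, at 95.2 and 7.59 CPM, and 1 at least 2-fold lower, Hk2, a hexokinase, at 42.8 and 100.2 CPM. Of 3 heat shock genes, 1 was at least 2-fold higher, Dnajb1 at 60.5 and 22.8 CPM.

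Ratios of standard over ActD were ranked over genes with at least 50 UMIs, without sex-linked, mitochondrial, haemoglobin, ribosomal protein and rule genes. The 12 highest were those of Ccl3, Isy1, Tnfaip3, Mt1, Slc25a33, Atf3, Thbs1, Dusp5, Cenpf, Ccl4, Egr1 and Ppp1r15a. Thbs1 had the most UMIs among them, at 2028 and 77.4 CPM (4.71, 4.31 to 5.14, or 3.61 with the removed cells kept in), with a UMI in 183 of 194 and 15 of 43 cells. The others had at most 7 UMIs in the ActD neutrophils, and their ratios carry wide intervals, such as 4.17 to 9.09 for Ccl3. The 12 lowest were Lipg, Irgm1, Slfn5, Ifit3b, Ifit1, Wfdc17, Zbp1, Ifit2, Prok2, Usp18, Ggt1 and Gbp7. Lipg, endothelial lipase, stood at 3.69 and 319 CPM (−6.43, −8.07 to −5.19), Wfdc17, a whey acidic protein of myeloid cells, at 113 and 1664 CPM (−3.88, −4.14 to −3.64), and Prok2, prokineticin 2, at 31.0 and 402 CPM (−3.70, −4.20 to −3.23). In microglia-like cells Lipg and Prok2 were at or under 0.2 CPM in both libraries.

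The cells that the same rule found after injury, 809 at 3 dpi and 739 at 14 dpi, were compared with the ActD sham neutrophils, since all 3 libraries had ActD. The software version in the file headers was 3.0.1 at 3 dpi and 3.1.0 for ActD sham and 14 dpi, so it also differed in the 3 dpi comparison. In the cells at 3 dpi, as a description since the rule used them, S100a8 and S100a9 took a median of 3.00% of their UMIs, 730 of 809 were under 10%, and their median depth was 2361 UMIs. Over 5361 genes, 46.4% (2489) were at least 2-fold higher and 9.01% (483) at least 2-fold lower than in ActD sham, with a median log2 ratio of 0.86. TMM scaling shifts each ratio by −0.78 and gives 1494 higher and 1041 lower genes. After thinning, Ly6g was found in 0.866% and Mmp8 in 6.68% of the cells at 3 dpi, against 48.8% and 83.7% in ActD sham. Few of the cells at 3 dpi thus carried the markers that fit the label in the sham libraries, and the ratios compare cells that differ in them. The specific granule list summed to 7403 CPM (log2 ratio −3.47, −3.50 to −3.45), with 8 of 9 genes at least 2-fold lower. Their highest ratios were those of Spp1, Ccl3, Gngt2, Pf4 and Tnfaip3, and their lowest those of Prok2, 1700047M11Rik, Lipg, Ltf and Cmpk2. Spp1, osteopontin, stood at 6210 CPM at 3 dpi and 3.04 CPM (2 UMIs) in ActD sham. Border macrophage markers stood at 895 CPM and microglial markers at 4325 CPM, against 217 and 1269 CPM in ActD sham. The MHC class II genes stood at 1359 against 37.96 CPM, with all 5 at least 2-fold higher, and eosinophil markers, nearly all Siglecf, had 261 UMIs against 0. Their part in the ratios at 3 dpi was not tested.

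In the cells at 14 dpi, S100a8 and S100a9 took a median of 34.3% of UMIs, again as a description. Over 5733 genes, 13.2% were at least 2-fold higher and 4.1% at least 2-fold lower than in ActD sham, with a median log2 ratio of 0.02. The specific granule list stood at 83223 CPM (log2 ratio 0.02, 0.01 to 0.03, or −0.37 with each cell weighted equally) and none of its 9 genes passed 2-fold, while the median cell held 1.62% in place of 6.11%. Immediate early genes were at least 2-fold higher for 10 of 18 genes, inflammatory genes for 10 of 16 and proliferation genes for 10 of 12, and 18 of 19 interferon-response genes were at least 2-fold lower. The neutrophil sums were 5262764 UMIs at 14 dpi and 658597 in ActD sham. Genes could thus reach the minimum through 14 dpi alone, as Top2a did with 913 and 2 UMIs. The proliferation sum had a log2 ratio of 0.53 (0.45 to 0.60), and the tenth of cells with the most UMIs of a list held 67.2% of the proliferation and 50.1% of the inflammatory UMIs at 14 dpi. Markers of other cells were higher there too, with MHC class II genes at 319 against 37.96 CPM (5 of 5 at least 2-fold higher), T and NK cell markers at 73.7 against 18.2 CPM, and mast cell and basophil markers at 390 against 2 UMIs. Their part in the ratios at 14 dpi was not tested. The interferon list stood at 4011 CPM at 14 dpi and 1712 CPM at 3 dpi, against 11099 CPM in the ActD and 2570 CPM in the standard sham library. The ActD sham neutrophils were thus the highest of the 4 libraries in this list. The 5 highest ratios at 14 dpi were those of Top2a, Ccl3, Hist1h1b, Spp1 and Crip1, and the 5 lowest those of Oas1g, Lipg, Oas1a, Cd38 and Prok2. All 3 comparisons share the 43 ActD sham cells, so their ratios are not independent.

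Of the sham neutrophils that could be called by sex, most were female. A cell was called male with a UMI of Ddx3y, Eif2s3y, Kdm5d or Uty and none of Xist, and female with the reverse. No such UMI was found in 98 of 194 standard and 22 of 43 ActD neutrophils. In the standard library 22 cells were male and 72 female (23.4% male, 15.3 to 33.3%), and in the ActD library 5 and 16 (23.8%, 8.22 to 47.2%). Of microglia-like cells, 39.7% and 44.2% of those called were male. At 3 dpi, 151 cells were male and 135 female (52.8% male), and at 14 dpi 261 and 37 (87.6%). Among microglia-like cells called by sex, 75.6% were male at 3 dpi and 46.7% at 14 dpi. The share of male cells among those found by the rule thus moved with the library in both comparisons with injury. Its part in those ratios was not tested.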

How the data were processed

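CD45+ cells of 4 mouse spinal cord libraries were analysed from the UMI count matrices that the authors deposited, 1 matrix per library. Per the labels these count values were made with Cell Ranger on mm10, as named in the submitters' processing notes, and the file headers give software 3.0.1 or 3.1.0. Of 31053 gene identifiers, 30934 matched GENCODE M21.

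The members and gene lists were chosen with earlier results of these data known. UMIs were summed over the neutrophils of a library and scaled to CPM. A gene entered a comparison with at least 50 UMIs in the 2 sums, and a log2 ratio of at least 1 in size was called. Intervals are exact at 95% and cover counting error only. A count of 0 was set to a floor of 3 for a bound. With 1 library per group no test was possible. On simulated counts for standard over ActD (3109 genes), 96.4% of intervals covered the true ratio. This coverage concerns counting error only and not the spread between cells or animals. To compare shares of cells, each cell was thinned to 1000 UMIs.

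Named were list genes, the 12 highest and 12 lowest ratios for standard over ActD and the 5 at each end for each injury library, without sex-linked, mitochondrial, haemoglobin, ribosomal protein and rule genes. Alternatives covered the cell filters, rule thresholds, excluded genes, depth, doublets (scanpy 1.11.5), cell weights and scaling (edgeR 4.0.16 in R 4.3.3). Other steps used python 3.11.15, numpy 2.4.6, scipy 1.17.1, pandas 2.3.3 and matplotlib 3.10.9. Promoters were taken from RefSeq, GRCm38.p6. Single values of some list genes are not reported here.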

Additional observations from a re-analysis of the deposited data

Results flagged for a closer look

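Fos and Socs3, a feedback inhibitor of cytokine signalling, were looked at again because their ratios of standard over ActD pointed in opposite directions in neutrophils and in microglia-like cells. In neutrophils the log2 ratio was −0.35 for Fos (426 and 545 CPM) and −0.90 for Socs3 (32.5 and 60.7 CPM). In microglia-like cells it was 7.86 and 5.33. The other 48 of the 50 list genes compared had ratios of the same sign in both classes. With 1 library per protocol, the difference between the classes was not tested. With cells of at most 1 UMI of the excluded genes kept in, the neutrophil ratios were −0.22 and −0.56, and with all removed cells kept in they were 1.64 and 2.38.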

How the results depend on the processing

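No paired analysis was possible because each group had 1 library. Of 212 values recomputed under alternatives, 117 moved by less than their counting interval or, for counts of genes or cells, by no more than 1.5 times. Some alternatives could not move the sham ratios. The lowest S100a8 and S100a9 share of a sham neutrophil was 2.69%, so the bound of 1% took the same sham cells. Scrublet removed 0 sham neutrophils. The inflammatory, immediate early and interferon ratios of standard over ActD kept their directions throughout, while the small granule ratio of 14 dpi over ActD sham did not. Where not stated, the cause was not tested. Without the excluded genes, 611 standard and 115 ActD cells (10.65 and 5.22%) were taken. The log2 ratios of standard over ActD were then 2.39 (immediate early), 2.67 (inflammatory), −2.60 (interferon), −0.59 (specific granule), 1.64 (Fos) and 2.38 (Socs3). For other named genes they were 4.42 (Jun), 8.36 (Atf3), 1.20 (Ccl6), 3.61 (Thbs1), −0.79 (Mmp8), −1.57 (Ltf) and −1.11 (Lcn2). Among interferon-response genes they were −5.42 (Ifit1), −4.58 (Ifit3), −2.92 (Isg15), −2.32 (Ifitm3) and −3.71 (Slfn4). Under this setting the standard granule level was 54242 CPM, and the granule ratios at 3 and 14 dpi were −3.91 and −0.23. With at most 1 UMI of the excluded genes, chosen after seeing the data, the numbers were 313 and 84 (5.46 and 3.81%), the interferon ratio −1.9997, the granule levels 76887 and 88795 CPM, and the granule ratios −0.21 (standard), −3.72 (3 dpi) and −0.040 (14 dpi). Without members with 3 microglial genes, also chosen after seeing the data, the ActD granule level was 80255 CPM and the granule ratios −0.13, −3.44 and 0.046. Under the same setting the immediate early ratio was 0.97, the inflammatory 2.10 and the interferon −2.11. Within the ranges under 2%, 2 to 8% and 8% or over, also added later, the immediate early ratio was 0.73, 0.66 and 1.23, the inflammatory 1.98, 1.74 and 1.82, and the interferon −2.28, −1.95 and −2.29. With 1000 genes and 5% mitochondrial UMIs as bounds, the inflammatory ratio was 2.05, the standard granule level 75450.0 CPM and the granule ratios −0.13, −3.33 and 0.14. With 200 genes and 20% the standard granule level was 72627 CPM. Asking for 2 of the 7 genes gave 72662 CPM and −3.56 at 3 dpi, and asking for 4 gave −3.33 at 3 dpi and −0.032 at 14 dpi. With S100a8 and S100a9 at 1% or over the 3 dpi ratio was −3.25. Without the deepest 5% of cells, the immediate early ratio was 0.93, the granule levels 61865 and 70937 CPM, and the granule ratios −0.20, −3.78 and −0.018. Thinned to 1000 UMIs, the inflammatory ratio was 2.58, the interferon −2.03, the granule levels 50773 and 62837 CPM, and the granule ratios −0.31 (standard) and −0.38 (14 dpi). With cells weighted equally, the interferon ratio was −2.001, the granule levels 49923 and 62909.9 CPM, and the granule ratios −0.33 and −0.37. Without Scrublet doublets the granule ratios were −3.44 (3 dpi) and 0.032 (14 dpi). With list medians over genes with 20 UMIs or more, the ratios were 1.33 (immediate early), 2.43 (inflammatory), −2.84 (interferon), −0.23 (specific granule), −4.35 (3 dpi) and −0.39 (14 dpi). With TMM scaling they were 1.12, 2.26, −2.003, −0.059 and −4.25 (3 dpi), and 1494 genes were higher and 1041 lower at 3 dpi. A minimum of 20 UMIs gave 536 higher and 689 lower genes for standard over ActD, 3961 higher at 3 dpi, and 1177 higher and 406 lower at 14 dpi. A minimum of 200 gave 121 and 86, 846 and 193, and 176 and 87, as fewer genes entered. The 43 ActD cells limit what can be seen there.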
